A study of Mus musculus with 6 samples.

Results

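Selected genes of the BCL2 family were followed through peak lists of the histone marks H3K4me1 and H3K4me3 in germinal center (GC) B cells of mice. The 10 genes were listed by name and are 10 of 21864 protein-coding genes of the annotation used. They comprise 3 prosurvival genes (Bcl2, Mcl1 and Bcl2l1) and 7 proapoptotic genes, of which 2 encode effectors (Bax and Bak1) and 5 encode BH3-only proteins (Bcl2l11, Bbc3, Bid, Pmaip1 and Bmf). The data came from Mint-ChIP, in which the chromatin of few cells is barcoded, pooled with that of other samples for immunoprecipitation and copied through RNA. There were 3 libraries for each mark, each from 50000 sorted cells of the spleen, taken on day 8 after the mice received sheep red blood cells. All 6 libraries carry the genotype label WT, and none carries a mutant genotype. The labels give neither age, sex nor strain. Per the labels the cells were GC centrocytes, which are the GC B cells of the light zone, but the methods of the study name only GC B cells. A protocol label names an antibody against H3K27ac, whereas titles, antibody labels and methods name H3K4me1 and H3K4me3, and the marks were taken from the titles. Replicates are called triplicates, with no statement that they came from separate mice, so p-values measure the spread between these libraries, which may be technical.

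BCL2 family proteins decide at the outer mitochondrial membrane whether a cell starts apoptosis. Prosurvival members hold BAX and BAK in check, BH3-only proteins neutralise the prosurvival members or activate the effectors directly, and active BAX and BAK open the membrane and release cytochrome c. GC B cells are known to be prone to apoptosis, to keep BCL2 low and to depend on MCL1. H3K4me3 is typical of active or poised promoters, and H3K4me1 is typical of enhancers and of the flanks of promoters.

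A peak was called promoter-proximal when it lay within 5 kb of a transcription start site (TSS) of a protein-coding transcript of the gene, outlying when it lay farther away but within 50 kb, and a gene body peak when it overlapped the gene. The promoter window of a gene joins 5 kb on each side of all its TSSs, and its coverage is the percentage of its length under peaks. The H3K4me1 lists held 24136, 13923 and 11922 peaks in replicates 1, 2 and 3, and the H3K4me3 lists held 41936 to 46707. H3K4me1 replicate 1 thus stood apart in peak number, and this is given below wherever it decides a value. H3K4me3 peaks covered a TSS in all 3 libraries at 10 of 10 genes of GC B cells and at 5 of 5 plasma cell genes, and at 0 of 6 T cell, 0 of 5 myeloid and 0 of 5 erythroid genes. Within 5 kb, the counts for these last 3 lists were 1, 2 and 2. The part of other cells in the values below was not tested.

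Among the H3K4me1 peaks near the members, 6 regions were found in all 3 libraries. The sequences of 5 of them, at Mcl1, Bcl2, Bid and Bak1, are shown because the results refer to them as recurrent sites, each up to 300 bases around the mean summit with exon bases removed, in build GRCm38. Capitals mark matches, on either strand, to any of 6 short motifs: an ETS core (GGAAGT), the octamer (ATGCAAAT), a RUNX motif (TGTGGT), an E-box (CAGCTG), a FOXO motif (TGTTTAC) and an AP-1 motif (TGANTCA).
Mcl1 downstream region, chr3:95668804-95669103, plus strand: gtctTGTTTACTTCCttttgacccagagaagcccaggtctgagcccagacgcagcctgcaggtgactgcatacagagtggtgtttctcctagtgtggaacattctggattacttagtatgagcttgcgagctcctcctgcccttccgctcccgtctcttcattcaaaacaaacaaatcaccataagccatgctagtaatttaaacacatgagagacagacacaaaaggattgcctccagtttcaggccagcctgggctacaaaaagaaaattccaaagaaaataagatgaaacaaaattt
Mcl1 far downstream region, chr3:95694073-95694372, plus strand: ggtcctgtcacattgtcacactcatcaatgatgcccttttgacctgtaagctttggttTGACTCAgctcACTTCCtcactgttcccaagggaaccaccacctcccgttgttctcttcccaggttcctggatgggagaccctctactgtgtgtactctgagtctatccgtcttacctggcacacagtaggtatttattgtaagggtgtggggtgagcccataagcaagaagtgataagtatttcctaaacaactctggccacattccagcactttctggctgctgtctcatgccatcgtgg
Bcl2 intron region, chr1:106552845-106553144, plus strand: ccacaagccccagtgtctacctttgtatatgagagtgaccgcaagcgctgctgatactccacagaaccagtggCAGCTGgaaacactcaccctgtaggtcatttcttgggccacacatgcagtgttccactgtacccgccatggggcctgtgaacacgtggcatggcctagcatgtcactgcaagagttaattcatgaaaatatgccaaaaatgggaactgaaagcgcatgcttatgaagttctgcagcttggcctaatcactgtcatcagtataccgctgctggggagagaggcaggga
Bid upstream region, chr6:120953685-120953822, plus strand: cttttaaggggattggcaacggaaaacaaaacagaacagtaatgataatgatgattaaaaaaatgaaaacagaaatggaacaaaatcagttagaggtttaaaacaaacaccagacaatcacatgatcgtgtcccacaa
Bak1 downstream region, chr17:26979398-26979697, plus strand: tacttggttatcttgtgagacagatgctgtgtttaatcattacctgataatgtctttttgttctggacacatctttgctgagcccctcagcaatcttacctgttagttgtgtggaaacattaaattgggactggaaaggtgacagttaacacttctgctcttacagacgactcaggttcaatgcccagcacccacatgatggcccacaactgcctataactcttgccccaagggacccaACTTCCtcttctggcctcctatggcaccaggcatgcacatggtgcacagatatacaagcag

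In the nearer Mcl1 region the FOXO match and the ETS match overlap, so that they form a single run of capitals, and the farther Mcl1 region holds an AP-1 match and a separate ETS match. The Bcl2 region holds an E-box match, the Bak1 region an ETS match, and the Bid region no match in the shorter stretch of 138 bases. Of the H3K4me1 regions of the genome found in all 3 libraries, 1797 were read as full windows, with exon bases kept. Among these, 4.95% held the FOXO motif, 26.8% the ETS core, 15.0% the E-box and 10.2% the AP-1 motif. The shares therefore do not apply like for like to a stretch shortened by removal of exon bases, as at Bid. A match is a run of letters and not evidence of a bound factor.

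Every member carried H3K4me3 at its promoter, and few carried H3K4me1 there in every library. A promoter-proximal H3K4me3 peak was present in all 3 libraries at 10 of 10 members, against 56.2% of all protein-coding genes. An H3K4me3 peak covered a TSS in all 3 libraries at 9 of 10 members (38.4% of all genes), the exception being Mcl1. Promoter-proximal H3K4me1 was called in all 3 libraries at 3 of 10 members, Mcl1, Pmaip1 and Bmf, against 6.17% of all genes (6.16% had both marks there in all 3) and 11.0% of the 12286 genes with promoter-proximal H3K4me3 in every library. This count of 3 depended on the limits. It was 0 when only peaks with a −log10 q-value of 5 or more were kept, 0 within 1 kb of a TSS, 0 for peaks over a TSS, 1 when each list was cut to its 10000 best peaks and 5 without H3K4me1 replicate 2. In at least 1 library such a peak was seen at 9 of 10 members, against 35.7% of all genes and 61.1% of those 12286. Bcl2 was the member with none. The median coverage of the promoter window by H3K4me3 was 41.0% ± 2.05 (SD, n = 3) over the members, 8.52% ± 1.40 (SD, n = 3) over all genes and 19.2% ± 1.52 (SD, n = 3) over genes with promoter-proximal H3K4me3 in every library. These shares and medians describe a list chosen by name and carry no test.

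**Figure D1:**
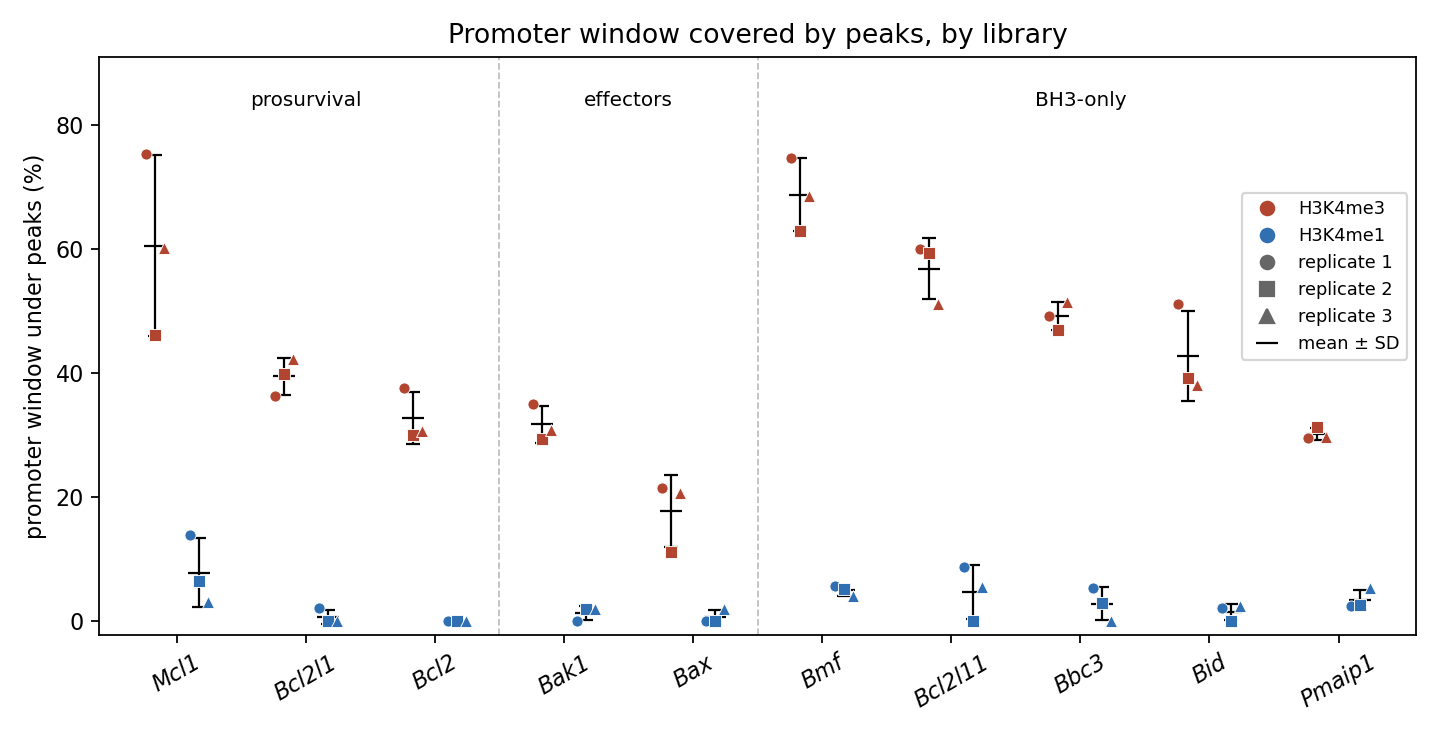
Percentage of the promoter window (5 kb on each side of all coding TSSs) under H3K4me3 peaks (red) and H3K4me1 peaks (blue) at the 10 genes, with a symbol for each replicate and bars for the mean ± SD of 3 libraries. Red points lie above blue points at every gene, from a mean of 68.8% at Bmf to 17.7% at Bax for H3K4me3, and prosurvival genes fall within the range of the BH3-only genes.

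By mean H3K4me3 coverage the members ranked Bmf, Mcl1, Bcl2l11, Bbc3, Bid, Bcl2l1, Bcl2, Bak1, Pmaip1 and Bax. Neighbours in this order overlapped between libraries at every step but the last, from Pmaip1 at 30.1% ± 0.998 (SD, n = 3) to Bax at 17.7% ± 5.80 (SD, n = 3). The order therefore separates its ends better than its middle. Among the 9 members matched in the RefSeq promoter table, all had a ratio of observed to expected CpG above the median of 0.384 over 32851 promoters. The ratio was highest at Bcl2l1 (1.07), Mcl1 (1.02) and Bcl2 (1.02) and lowest at Bak1 (0.435) and Bmf (0.567). CpG richness and coverage thus took different orders among the members, with Bmf low in the former and highest in the latter.

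Promoter stretches are shown for the members at the ends of the coverage order and for Mcl1 and Bcl2l11, which had many outlying peaks. They hold up to 250 bases before the start site, from RefSeq (GRCm38.p6), in the direction of transcription and with exon bases removed, and capitals mark matches to the same 6 motifs.
Bmf promoter, chr2:118549688-118549936, minus strand: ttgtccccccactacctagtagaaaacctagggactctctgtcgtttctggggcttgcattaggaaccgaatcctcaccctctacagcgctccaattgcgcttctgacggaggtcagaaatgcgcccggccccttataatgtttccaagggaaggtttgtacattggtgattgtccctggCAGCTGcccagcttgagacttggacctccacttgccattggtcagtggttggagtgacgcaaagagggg
Bcl2l11 promoter, chr2:128125788-128126037, plus strand: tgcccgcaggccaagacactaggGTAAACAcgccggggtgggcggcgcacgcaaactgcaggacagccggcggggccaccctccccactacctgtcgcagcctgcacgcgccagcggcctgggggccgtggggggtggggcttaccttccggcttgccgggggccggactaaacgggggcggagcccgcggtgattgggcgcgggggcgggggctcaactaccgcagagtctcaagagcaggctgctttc
Mcl1 promoter, chr3:95658471-95658720, plus strand: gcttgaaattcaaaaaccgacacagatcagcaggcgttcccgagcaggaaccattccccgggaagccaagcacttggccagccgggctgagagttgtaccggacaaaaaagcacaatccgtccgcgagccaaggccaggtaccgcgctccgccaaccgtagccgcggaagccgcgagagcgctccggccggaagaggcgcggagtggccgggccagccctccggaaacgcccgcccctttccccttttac
Bax promoter, chr7:45466899-45467148, minus strand: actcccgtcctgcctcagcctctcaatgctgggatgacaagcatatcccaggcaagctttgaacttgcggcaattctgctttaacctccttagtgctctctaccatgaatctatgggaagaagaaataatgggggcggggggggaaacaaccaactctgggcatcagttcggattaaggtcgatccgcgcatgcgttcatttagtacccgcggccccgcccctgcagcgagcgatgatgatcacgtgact

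The Bmf stretch holds an E-box match and the Bcl2l11 stretch a FOXO match, and the other stretches hold none. In the full RefSeq promoter windows of 300 bases, 16.3% of all 32851 promoters held the E-box, 3.65% the FOXO motif and 23.8% the ETS core. These shares do not apply like for like to the shorter stretches. In its full window Bmf held 2 E-box matches, Bcl2l11 a FOXO and an E-box match, Mcl1 an ETS match and Bax none.

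Mcl1 combined wide H3K4me3 with the most H3K4me1 peaks within 50 kb of the TSSs among the prosurvival genes. Mcl1 encodes the short-lived prosurvival protein MCL1, on which GC B cells depend. H3K4me3 covered 75.4%, 46.2% and 60.1% of its promoter window in replicates 1, 2 and 3, higher than in 99.7%, 97.1% and 99.0% of all genes, and the spread was the largest of the 10 members. The widest H3K4me3 peak measured 7230, 3998 and 4787 bp. In replicate 1 it crossed the TSSs, whereas in replicates 2 and 3 the nearest H3K4me3 peak ended 294 and 295 bp from the nearest TSS, so the start site itself was left uncovered there. H3K4me1 covered 13.9%, 6.42% and 2.98% of the window with 4, 3 and 1 peaks. These H3K4me1 peaks did not recur at a single place: a region 1.27 kb upstream was seen in replicates 1 and 2 and another 1.97 kb downstream, over an exon, in replicates 1 and 3.

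Farther out, Mcl1 had 8, 10 and 7 outlying H3K4me1 peaks, more than 96.5%, 99.6% and 99.0% of all genes had. Its outlying H3K4me3 peaks numbered 10, 8 and 9. The H3K4me1 region of highest mean fold enrichment that recurred in all 3 libraries lay 9.94 kb downstream of the nearest TSS at chr3:95668800-95669154, outside annotated genes, with fold enrichment of 7.72, 9.0 and 5.12 in replicates 1, 2 and 3. H3K4me3 peaks overlapped it in 3 of 3 libraries. A further region at chr3:95693664-95694525 recurred in all 3 libraries with fold enrichment of 3.51, 4.50 and 5.85, and its nearest coding TSS was that of Adamtsl4 at 5747 bp, so the distance alone ties it to neither gene.

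Bcl2 had a marked promoter in H3K4me3 and none in H3K4me1. Bcl2 encodes the founding prosurvival protein, which is placed under immunoglobulin control by translocation in follicular lymphoma. H3K4me3 covered 37.5%, 29.9% and 30.7% of its promoter window, and the widest peak measured 2895, 3002 and 3099 bp, with fold enrichment of 6.64, 6.46 and 6.66. These peaks were the steadiest in width among the members, with an SD of 102 bp. No promoter-proximal H3K4me1 peak was called in any of 3 libraries, as for 64.3% of all genes. Bcl2 had 4, 2 and 1 outlying H3K4me1 peaks and 4, 4 and 3 outlying H3K4me3 peaks, so both marks were sparser within 50 kb of its TSSs than at Mcl1. For both marks the outlying counts of the 3 libraries of Bcl2 and the 3 of Mcl1 did not overlap.

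Most peaks at Bcl2 lay inside the gene, which is 176.1 kb long. H3K4me1 peaks in the gene body numbered 15, 4 and 4 in replicates 1, 2 and 3. When the gene was cut into 3 equal lengths, the length farthest from the TSSs held 12, 3 and 1 of them, so replicate 1 set most of this count. The same length held 8, 8 and 6 H3K4me3 peaks, and there the libraries differed little. A single H3K4me1 region of the gene recurred in all 3 libraries, at chr1:106552713-106553491 in an intron 160 kb downstream of the TSSs, with fold enrichment of 6.32, 3.66 and 5.60. This region also lies within the gene model D630008O14Rik and was overlapped by H3K4me3 peaks in 3 of 3 libraries. Because it is farther than 50 kb from the TSS, it was singled out after its values were seen. The widest H3K4me3 peak of this end of the gene measured 4633, 4766 and 5353 bp, wider than the peak at the Bcl2 promoter in every library.

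**Figure D2:**
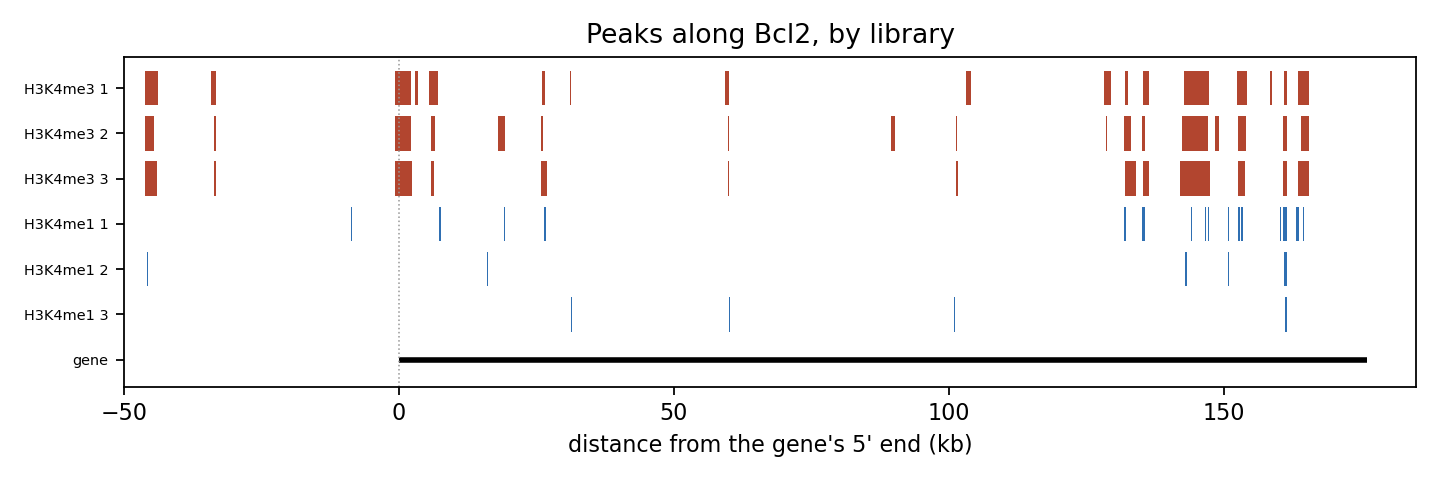
Peaks along Bcl2 by distance from the 5′ end of the gene in kb, counted in the direction of transcription, with H3K4me3 libraries in red, H3K4me1 libraries in blue and the 176.1 kb gene as a black bar. H3K4me3 peaks cluster at the start and toward the far end in all 3 libraries, whereas of 15, 4 and 4 H3K4me1 peaks in the gene most toward the far end belong to replicate 1.

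Bcl2l1, which encodes BCL-XL, resembled Bcl2 in having little promoter H3K4me1. H3K4me3 covered 36.2%, 39.9% and 42.2% of its window, with the widest peak at 2094, 4558 and 3783 bp. The highest fold enrichment of its promoter-proximal H3K4me3 peaks was 6.15, 4.37 and 4.68. A single promoter-proximal H3K4me1 peak was called, in replicate 1, with a fold enrichment of 3.51, and 4.28% of the peaks in that list were weaker. Outlying H3K4me1 peaks numbered 6, 2 and 2 and outlying H3K4me3 peaks 5, 4 and 7, most of them inside the 51.06 kb gene. No H3K4me1 region recurred in all 3 libraries. An intronic region 35.9 kb downstream was seen in replicates 1 and 2 at fold enrichments of 6.32 and 6.75 and was overlapped by H3K4me3 in 3 of 3 libraries.

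Of the effector genes, Bax had the lowest mean H3K4me3 coverage of the members, while Bak1 lay between Bcl2 and Pmaip1. Bax, whose product forms pores in the mitochondrial membrane, had 21.5%, 11.1% and 20.6% of its window under H3K4me3, from a single peak of 2164, 1112 and 2075 bp in each library. Coverage of Bax was higher than in 73.0%, 56.4% and 76.6% of all genes, so Bax came nearest of the members to the middle of the genome. H3K4me1 was called in its window in replicate 3 alone, over 1.88%. Bax had 3, 1 and 2 outlying H3K4me1 peaks, and all of them lay within 5 kb of a coding TSS of some gene, so that Bax was the 1 member without outlying H3K4me1 away from every coding TSS.

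Bak1 encodes the partner effector BAK. H3K4me3 covered 35.0%, 29.3% and 30.8% of its window, higher than in 90.1%, 89.3% and 90.0% of all genes. The coverage again came from a single peak per library, with fold enrichment of 8.61, 6.15 and 7.31. In each library this peak lay wholly downstream of the TSS farthest upstream and covered another annotated TSS. The window also holds a TSS of Ggnbp1, 250 bp from a TSS of Bak1, so that peaks there cannot be assigned to either gene by position. H3K4me1 covered 0%, 1.92% and 1.85% of the window. Outlying peaks were numerous, with 4, 7 and 6 of H3K4me1 and 10, 11 and 7 of H3K4me3. The H3K4me1 region that recurred in all 3 libraries lay at chr17:26979402-26979894, 48.8 kb downstream, with fold enrichment of 6.18, 5.25 and 4.67. It falls in an intron of the gene models Ggnbp1 and Zbtb9, and the TSS of Zbtb9 is its nearest, at 6235 bp.

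The BH3-only genes spanned nearly the whole range of coverage. Bmf, whose product is held at the cytoskeleton in healthy cells, had the highest mean H3K4me3 coverage of the 10 genes, with 74.7%, 62.9% and 68.6% of the window covered, although Mcl1 was higher in replicate 1 at 75.4%. Its widest peak measured 6792, 6985 and 7319 bp. The fold enrichment of that peak, taken as an average over its whole width, was 6.82, 4.95 and 6.25, from which its height cannot be read. H3K4me1 covered 5.66%, 5.10% and 3.95% of the window. A region 1.43 kb downstream was seen in replicates 1 and 2, and replicate 3 had its H3K4me1 peaks elsewhere in the window.

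Bcl2l11 encodes BIM, a BH3-only protein that binds all prosurvival members. H3K4me3 covered 60.0%, 59.3% and 51.2% of its window, with a widest peak of 6011, 5941 and 4537 bp that reached farther upstream than downstream. H3K4me1 covered 8.60%, 0% and 5.38%, all of it upstream of the TSSs, where a region 0.524 kb away was seen in replicates 1 and 3. Bcl2l11 had the most outlying H3K4me3 of the members, at 12, 11 and 12 peaks, more than 98.5%, 98.1% and 98.8% of all genes had, and all of these lay away from every coding TSS. Its outlying H3K4me1 peaks numbered 8, 2 and 4, and none recurred in all 3 libraries. H3K4me1 regions 33.2 kb and 31.9 kb upstream, in an intron of Acoxl, were seen in replicates 1 and 3.

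Bbc3 encodes PUMA, a target of p53. H3K4me3 covered 49.2%, 46.9% and 51.5% of its window, a narrow spread, and its highest fold enrichment was 6.95, 7.86 and 8.84. H3K4me1 covered 5.30%, 2.89% and 0%, with a region 1.85 kb downstream, in an intron, in replicates 1 and 2. Outlying peaks numbered 4, 3 and 1 for H3K4me1 and 9, 6 and 8 for H3K4me3, and the H3K4me1 regions 33.5 kb and 35.7 kb downstream that were seen in replicates 1 and 2 lay in an intron of Sae1.

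Bid links death receptor signalling to the mitochondrial pathway after cleavage by caspase-8. H3K4me3 covered 51.1%, 39.2% and 38.0% of its window, and H3K4me1 covered 2.07%, 0% and 2.37%. The Bid window also holds a TSS of the non-coding gene model Gm44260, 1860 bp from that of Bid. Outlying H3K4me1 peaks numbered 7, 6 and 3 and outlying H3K4me3 peaks 9, 11 and 7, all of them away from every coding TSS. The recurrent H3K4me1 region at chr6:120953451-120953828, 36.6 kb upstream and over an exon of Mical3, had fold enrichment of 9.12, 5.25 and 8.04. Its mean of 7.47 was the highest among the 6 recurrent regions, and H3K4me3 overlapped it in 3 of 3 libraries.

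Pmaip1 encodes NOXA, which binds MCL1 and promotes its turnover. H3K4me3 covered 29.5%, 31.3% and 29.6% of the window, the smallest spread of the members, higher than in 85.4%, 90.9% and 89.0% of all genes. In each library 2 peaks made up this coverage. The peak over the TSS measured 2340, 2515 and 2534 bp, with fold enrichment of 6.21, 5.69 and 5.12. A shorter peak of 904, 935 and 706 bp, whose near edge lay 4374, 4368 and 4553 bp upstream, had fold enrichment of 12.6, 7.60 and 11.6, above 99.7%, 93.1% and 99.8% of the H3K4me3 peaks of the same lists. The higher fold enrichment of the Pmaip1 window thus belonged to the shorter peak, away from its start site. Fold enrichment is taken as an average over each peak, so it does not show where H3K4me3 stood highest. Pmaip1 was the 1 member at which the same promoter-proximal H3K4me1 region recurred in all 3 libraries. That region lay 4.70 kb upstream, just inside the limit of 5 kb and under the shorter H3K4me3 peak, with H3K4me1 fold enrichment of 4.91, 4.18 and 5.85. Outlying peaks were few for a member, at 2, 1 and 2 for H3K4me1 and 5, 4 and 3 for H3K4me3. They were still more than 66.3%, 60.1% and 81.7% of all genes had for H3K4me1. For H3K4me3 these shares were 73.0%, 67.6% and 56.4%.

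**Figure D3:**
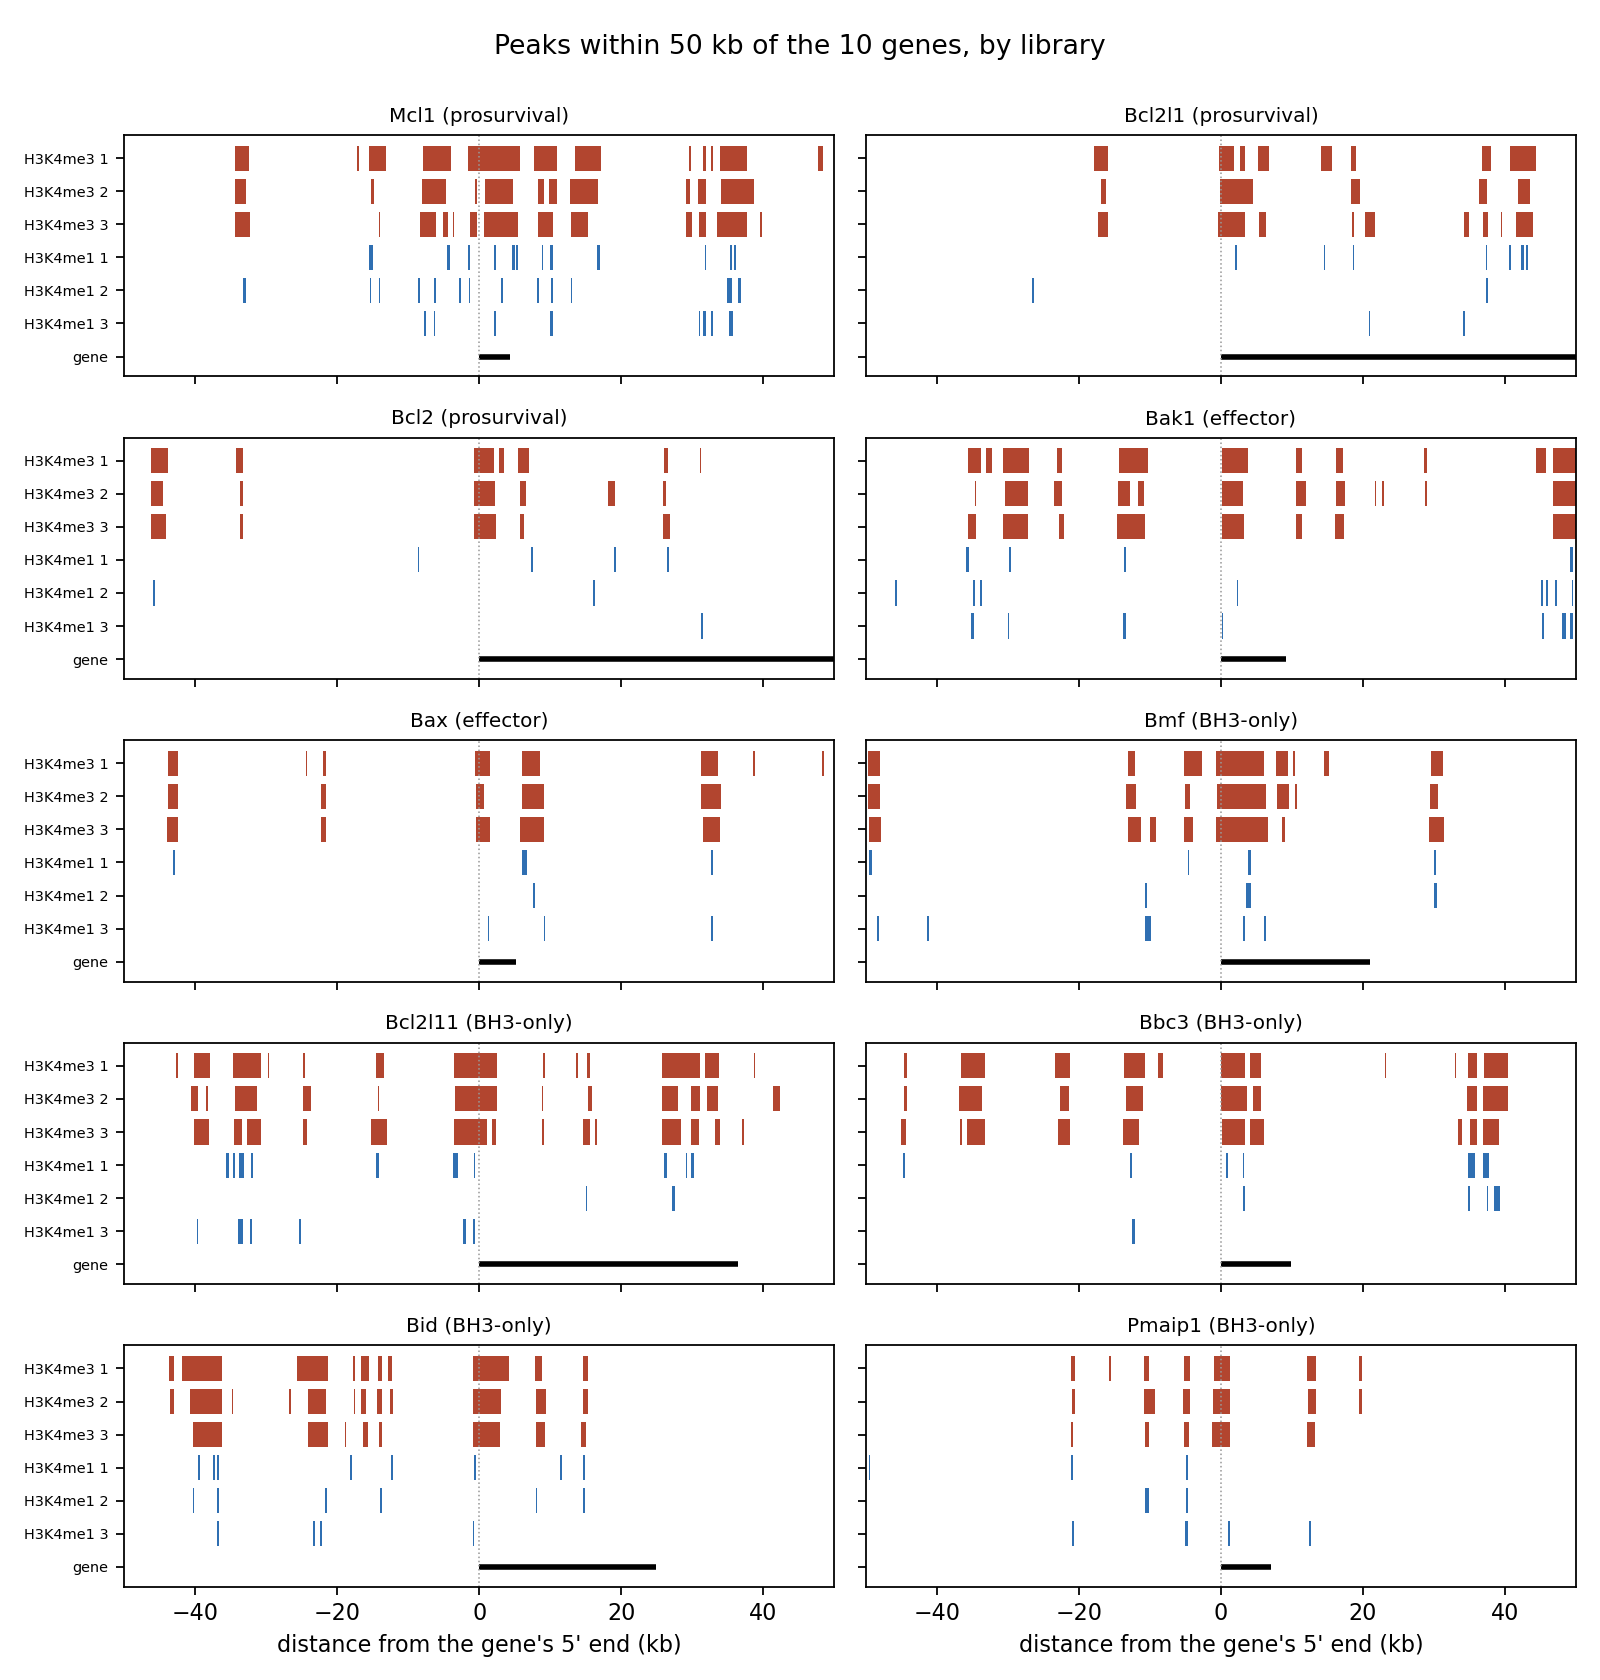
Peaks within 50 kb of the 5′ end of each gene, in kb and in the direction of transcription, with H3K4me3 libraries in red, H3K4me1 libraries in blue and the gene as a black bar. Each panel shows a wide H3K4me3 block at the start, up to 7319 bp at Bmf and interrupted at the start of Mcl1 in replicates 2 and 3, and scattered H3K4me1 peaks that are densest around Mcl1.

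With all deposited peaks and a window of 5 kb, the difference in promoter coverage between prosurvival and proapoptotic genes was smaller than its spread between libraries. For H3K4me3 the mean over the 3 prosurvival genes was 49.7%, 38.7% and 44.4% in replicates 1, 2 and 3, and over the 7 proapoptotic genes it was 45.9%, 40.0% and 41.5%. The difference, prosurvival minus proapoptotic, was 1.79 percentage points ± 2.76 (SD, n = 3), with the proapoptotic mean higher in replicate 2. It depended on the genes and limits used. It was -6.37 ± 2.29 (SD, n = 3) without Mcl1, -7.30 ± 2.63 (SD, n = 3) when only peaks with a −log10 q-value of 5 or more were kept and -11.2 ± 7.35 (SD, n = 3) within 1 kb of a TSS, but 7.57 ± 4.0 (SD, n = 3) with the TSSs of all annotated transcripts. For H3K4me1 coverage the means were 5.31%, 2.14% and 0.993% against 3.43%, 1.77% and 2.96%, with a difference of 0.0939 percentage points ± 1.93 (SD, n = 3). Without H3K4me1 replicate 1 this difference was -0.796. The widest promoter-proximal H3K4me3 peak averaged 4073, 3853 and 3890 bp at prosurvival genes and 4197, 3860 and 3814 bp at proapoptotic genes, which left no consistent order. For H3K4me1 the widest promoter-proximal peak, counted as 0 where none was called, averaged 203, 80.3 and 100 bp at prosurvival genes and 259, 193 and 226 bp at proapoptotic genes, lower at prosurvival genes in 3 of 3 libraries, with a difference of -98.1 bp ± 37.4 (SD, n = 3). Missing calls bear on this order, since 0 entered for Bcl2 in every library, for Bcl2l1 in replicates 2 and 3 and for some proapoptotic genes. In replicate 3 Mcl1 alone of the prosurvival genes had such a peak. It measured 300 bp, within the 189 to 349 bp of the peaks called at proapoptotic genes.

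Outlying peaks were present around every member in both marks. An outlying H3K4me1 peak was seen in all 3 libraries at 10 of 10 members, against 25.3% of all genes and 38.1% of the genes with promoter-proximal H3K4me3 in every library. The peaks of the libraries did not have to coincide. An outlying H3K4me1 region shared by all 3 libraries was found at Mcl1, Bak1 and Bid alone. For outlying H3K4me3 the count was 10 of 10, against 64.9%. When peaks within 5 kb of any coding TSS were set aside, outlying H3K4me1 was seen in all 3 libraries at 9 of 10 members, against 14.8% of all genes.

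The order of the roles differed between the marks. Prosurvival genes averaged 6.33, 5.33 and 6.33 outlying H3K4me3 peaks and proapoptotic genes 8.43, 7.43 and 6.71, so the prosurvival mean was lower in 3 of 3 libraries, with a difference of -1.52 ± 0.990 (SD, n = 3). For outlying H3K4me1 the prosurvival means of 6.0, 4.67 and 3.33 were above the proapoptotic means of 4.29, 3.29 and 3.00 in 3 of 3 libraries, with a difference of 1.14 ± 0.721 (SD, n = 3). This excess was carried by Mcl1, because the difference without Mcl1 was -0.690 ± 1.22 (SD, n = 3) and the difference of medians over genes was 0 ± 1.73 (SD, n = 3). The shortfall of H3K4me3 was in turn smaller without Bcl2, at -0.357 ± 1.44 (SD, n = 3), and larger without Mcl1, at -3.02 ± 1.16 (SD, n = 3). With 3 and 7 genes, each difference between the roles thus described single genes as much as roles.

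**Figure D4:**
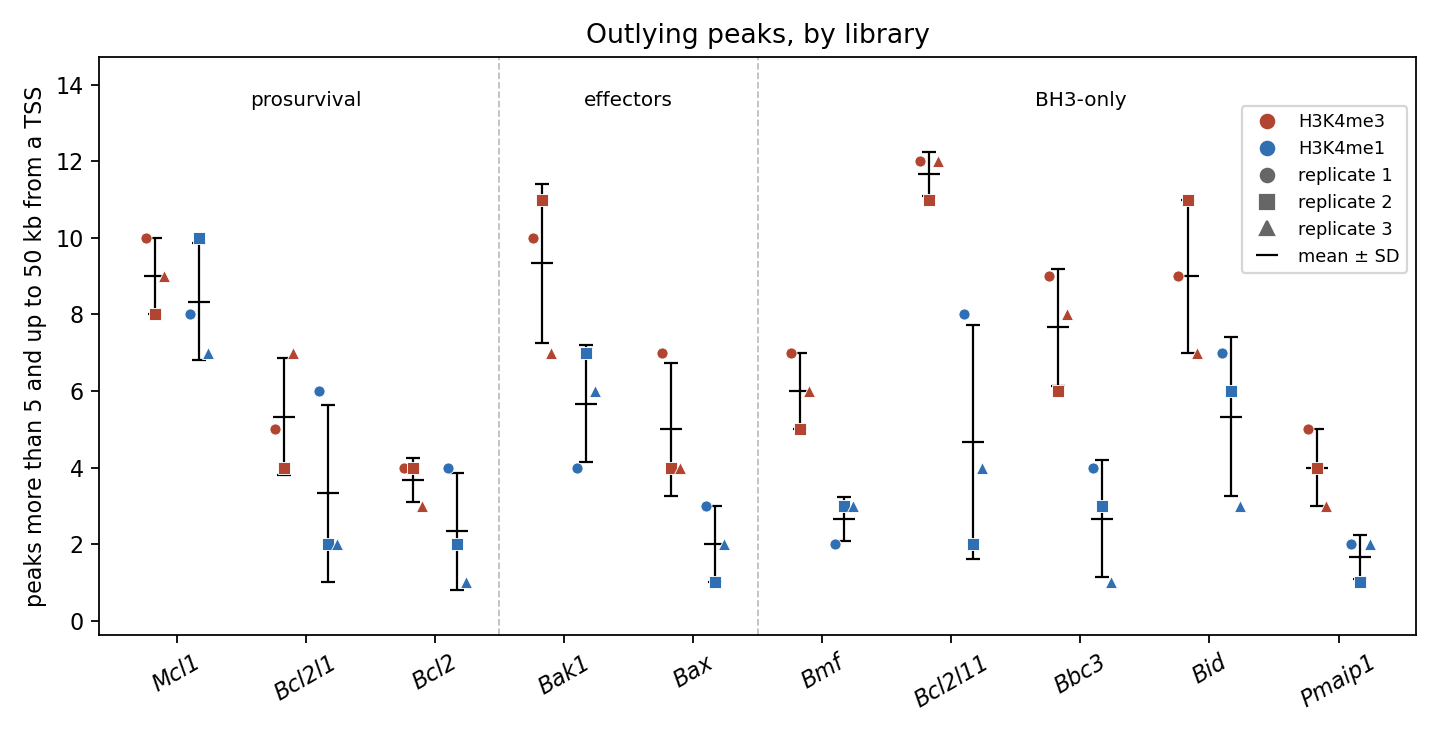
Number of peaks more than 5 kb and up to 50 kb from the nearest coding TSS of each gene, for H3K4me3 (red) and H3K4me1 (blue), with a symbol for each replicate and bars for the mean ± SD of 3 libraries. Bcl2l11 has the most H3K4me3 peaks (11 to 12) and Mcl1 the highest mean of H3K4me1 peaks (8.33), whereas Bcl2, Pmaip1 and Bax are low among these genes in both marks.

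Inside gene bodies and beyond 5 kb of the TSSs, H3K4me1 was seen in all 3 libraries at 2 of 10 members, Bcl2 and Bcl2l1, against 6.64% of all genes. Only at Bcl2 did the same region recur in all 3. Gene body H3K4me3 was seen in all 3 libraries at 5 of 10 members (19.3% of all genes), namely Bcl2, Bcl2l1, Bcl2l11, Bid and Bmf, which are the 5 longest. Prosurvival genes averaged 7.0, 1.67 and 2.0 such H3K4me1 peaks and proapoptotic genes 0.714, 0.571 and 0. For H3K4me3 the averages were 5.33, 5.33 and 5.0 against 1.43, 1.29 and 1.29, a difference of 3.89 ± 0.167 (SD, n = 3). Per 10 kb of gene, H3K4me3 peaks numbered 0.681, 0.738 and 0.511 at Bcl2, 0.783, 0.588 and 1.18 at Bcl2l1 and 1.37, 1.37 and 1.64 at Bcl2l11. In H3K4me1, Bcl2 had 0.852, 0.227 and 0.227 peaks per 10 kb and Bcl2l1 had 1.18, 0.196 and 0.392, beside 0.822, 0.548 and 0 at Bcl2l11 and 0.802, 0.802 and 0 at Bid. Gene length thus moved with the counts per gene, and its part in them was not tested.

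The marks differed at every member in the same direction. H3K4me3 covered more of the promoter window than H3K4me1 in all libraries at 10 of 10 members, and the same held at 55.8% of all genes. These were 12193 genes, beside 12286 genes with promoter-proximal H3K4me3 in every library, as every member had. The count of 10 thus adds little to the presence of that H3K4me3. The difference ranged from 17.1 percentage points at Bax to 63.9 at Bmf, with an exact two-sided permutation p of 0.1 (n = 3 per mark) at each gene, the smallest value that 20 assignments allow. The H3K4me1 lists hold narrow peaks with summits and the H3K4me3 lists hold broad peaks, so that mark and calling mode cannot be told apart in this contrast.

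Recurrence between libraries was lower for H3K4me1 than for H3K4me3 at the members. H3K4me3 peaks were more numerous and wider, with a median of 821 to 857 bp per list against 253 to 270 bp, and any overlap counted. Mark, peak width and calling mode cannot be told apart here. Of 73, 47 and 44 H3K4me1 peaks near or in the members, 27, 20 and 21 overlapped a peak of another H3K4me1 library. These were 37.0%, 42.6% and 47.7%, against 31.0%, 43.1% and 46.6% of all H3K4me1 peaks. Of 106, 95 and 93 H3K4me3 peaks, 84, 87 and 83 overlapped a peak of another H3K4me3 library, or 79.2%, 91.6% and 89.2% (72.1%, 78.9% and 78.6% of all). The summits of the member H3K4me1 peaks held an estimated median of 6 fragments in each library and at most 15, 12 and 11. Absence from an H3K4me1 list at this depth therefore cannot be read as absence of the mark. H3K4me1 peaks of the members overlapped H3K4me3 in at least 1 library in 89.0%, 83.0% and 90.9% of cases, and all H3K4me1 peaks did so in 80.0%, 80.7% and 84.2%.

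Of 13 other BCL2 family genes, 10 had promoter-proximal H3K4me3 in all 3 libraries (56.2% of all genes) and 6 had an H3K4me3 peak over a TSS in all 3 (38.4%). Promoter-proximal H3K4me1 was present in all 3 libraries at 0 of the 13 (6.17%) and outlying H3K4me1 at 2 (25.3%). Bcl2a1a and Bcl2l10 had no promoter-proximal peak of either mark in any library. Bcl2a1b and Bcl2a1d, near-identical copies of Bcl2a1a that share sequence with it, had H3K4me3 coverage of 52.5% to 64.4% and 25.3% to 32.2%, so reads of this group may be split or lost and its members are uncertain. Of 8 genes of the mitochondrial death pathway, which act downstream of BAX and BAK in the activation of caspases, 7 had promoter-proximal H3K4me3 in all 3 libraries. Xiap, an inhibitor of caspases, had it in replicate 1 alone.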

How the data were processed

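Mint-ChIP peak lists of 6 libraries, 3 for H3K4me1 and 3 for H3K4me3, were read as deposited, and samples were grouped by the mark in their titles. The authors deposited a separate list of peaks for each library. The columns have the layout of MACS2, narrow for H3K4me1 and broad for H3K4me3. The submitters' processing notes name BWA, Picard, HOMER, Genrich and mm10, while the caller that made these lists, its settings and the total reads per library are not given in the sources used here, so depth is known only through the peaks. The deposited fold enrichment is a ratio, on a linear scale, of pileup over the local background, and the deposited −log10 p-value and −log10 q-value belong to the same comparison. In broad lists of the MACS2 layout these values are averages over the peak. This was assumed here and could not be checked, since the caller is not given. The lowest deposited −log10 q-value was 1.31 to 1.32 for H3K4me1 and 1.02 to 1.14 for H3K4me3. The deposited score column was not used.

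Genes and TSSs of protein-coding transcripts came from the GENCODE M21 basic annotation of GRCm38 (mm10). In the files 0 peaks passed a chromosome end. A peak counted for a window when at least 1 bp overlapped. Fragments at H3K4me1 summits were estimated from fold and p-value together, assuming a Poisson background and a pseudocount in the fold. Since the caller is not given, these assumptions could not be checked. Promoter sequences were taken from the RefSeq table, in which 9 members were matched, and regions from the RefSeq GRCm38.p6 genome. Counts and shares over members carry no p-value. The contrast between marks at each member was tested with a two-sided exact permutation test, without adjustment, since no p can fall below 0.1. Assignment of peaks to genes was tested on simulated peaks at 200 genes. The members and lists were chosen with earlier results of these data known. The text names all 10 members. For other lists it names genes with promoter-proximal peaks of both marks in every library and genes with none in any, apart from an item that is not reported here. For each member it gives the widest promoter-proximal H3K4me3 peak or the coverage it sets, and the H3K4me1 region within 50 kb found in all libraries with the highest mean fold. Alternatives were a −log10 q-value of at least 5, the 10000 best peaks, other overlap rules, TSS sets and distances, and leaving out each library. Python 3.11.15 was used with numpy 2.4.6, pandas 2.3.3, scipy 1.17.1 and matplotlib 3.10.9.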

Additional observations from a re-analysis of the deposited data

How the results depend on the processing

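Counts of members with promoter-proximal H3K4me3 in every library stayed within 8 to 10 of 10, except with the 10000 best peaks per library, which left 6. The H3K4me1 count of 3 was less stable. It became 0 at a −log10 q-value of at least 5, 0 within 1 kb of a TSS, 0 where the peak had to cover a TSS and 1 with the 10000 best peaks, and it was 4 to 5 without any single library. The difference in H3K4me3 coverage between prosurvival and proapoptotic genes, 1.79 percentage points, turned to -7.30 at the stricter q-value, -5.79 with the 10000 best peaks, -11.2 within 1 kb, -2.24 as a median and -6.37 without Mcl1, and grew to 7.57 with TSSs of all annotated transcripts and 7.55 without Bcl2. It was 0.756 to 3.35 without any single library. For H3K4me1 coverage the corresponding values were -0.590 at the stricter q-value, -0.835 with the best peaks, -2.54 within 1 kb, -1.57 as a median and -2.39 without Mcl1, and -0.796 to 1.12 without any single library (-0.0448 without replicate 2). The difference in outlying H3K4me3 peaks kept its sign in every alternative, at -0.349 with the best peaks, -2.67 up to 100 kb, -0.357 without Bcl2, -3.02 without Mcl1 and -2.10 to -1.24 without any single library. That in outlying H3K4me1 peaks was -0.0476 at the stricter q-value, -0.690 without Mcl1, 0.270 with the best peaks, 0 as a median, 2.31 without Bcl2 and 0.857 to 1.55 without any single library. The differences without single genes were added after seeing the data. The cause of these changes was not tested, beyond the smaller number of peaks that stricter lists hold.

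The contrast between marks stayed positive at 10 of 10 members at the stricter q-value, within 1 kb and without any single library (15.2 to 66.8), and at 8 of 10 with the 10000 best peaks, where it was 0 at Bcl2l1 and Bax. At the stricter q-value the libraries of the marks no longer separated fully at Bcl2l1 (8.49 percentage points) and Bax (14.0). With the 10000 best peaks full separation was also lost at Mcl1 (34.0), Bid (11.9) and Pmaip1 (3.90). Whether the replicate numbers of the labels pair the libraries is not settled here. Deviations of same-numbered libraries correlated at 0.0695, 0.0311 and -0.00397 over 12286 genes, and those of differently numbered libraries at -0.0593 to 0.0425. Values this near to each other cannot show or exclude shared material. With the replicate block, a sign-flip over the 3 pairs, the differences were 17.1 to 63.9 and every p was 0.25, the smallest possible. Absence of a peak depends on depth, since H3K4me1 summits at the members held an estimated median of 6 fragments.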
